A study of Mus musculus with 9 samples.

Results

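The genes described here are 36 mouse genes for proteins of the lysosomal membrane, which hold the limiting membrane together, carry signals from it or move solutes across it. They were chosen by name, with earlier results of these data known, and sorted by what each protein does or transports. They stand among 55487 genes in the count tables. All 36 were found in the tables, 2 of them under another symbol: Tmem55b is listed as Pip4p1 and Slc66a1 as Pqlc2. After the filter on low counts 35 remained for testing; Cd63 did not pass.

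The study asked how loss of Slc12a9, a cation-chloride cotransporter family member, alters gene expression in J774A.1 cells, a mouse macrophage line, in a setting where glutamine, a source of cellular ammonia, was withheld. PolyA RNA was sequenced from 9 libraries, 3 each from cells given Slc12a9 sgRNA 11, Slc12a9 sgRNA 15 or a safe-targeting sgRNA, the control guide. The labels call the genotype of both Slc12a9 guides a knockdown and that of the safe guide WT, while the study's design text speaks of knockout cells. All groups were the same line, grown with 10% serum and glutamine and then held for 6 h without either before RNA was taken, so every comparison is between cells deprived in this way. The labels do not say whether a guide stands for 1 clone or a pool, nor whether replicates were separate cultures, so the p-values measure the spread between these libraries, which may be technical.

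Lysosomes degrade what cells engulf or sequester, and their membrane must both resist the enzymes inside and let the products out. Heavily glycosylated proteins such as Lamp1 and Lamp2 line its inner face, while dedicated carriers export sugars, amino acids, lipids, vitamins and ions to the cytosol, and loss of single carriers causes storage diseases such as cystinosis, sialic acid storage disease and Niemann-Pick disease type C. In macrophages, which take up and digest large amounts of material, many of these genes are abundantly expressed. Transcription factors of the MiT/TFE family, such as Tfeb, drive many lysosomal genes by binding promoter sites built around the letters CACGTG.

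The 250 bases before the annotated starts were therefore searched for CACGTG, which reads the same on both strands. RefSeq promoter entries on GRCm38.p6 existed for 29 of the 36 genes, with 32 promoters among them. The motif was in 5 of the 32 promoters (15.6%), against 6.02% of all 32851 promoters, and the longer form TCACGTGA, which contains it, was in 3 of them (9.38%), against 0.785%. The genes were Mfsd1, Lamp1, Tmem55b, Cln3 and Slc36a1. Mfsd1 held 5 copies and Lamp1 held 4, and only 7 of the 32851 promoters held 4 or more. A match is a description of the letters, not evidence of binding. The windows that hold the copies in 4 of the genes are shown because their crowding differs from gene to gene, with each CACGTG in capitals and the strand of the gene, 5′ to 3′, on GRCm38.p6.
Mfsd1, chr3:67582674-67582763, plus strand: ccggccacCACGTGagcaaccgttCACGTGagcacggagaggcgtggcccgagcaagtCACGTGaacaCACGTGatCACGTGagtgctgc
Lamp1, chr8:13159092-13159159, plus strand: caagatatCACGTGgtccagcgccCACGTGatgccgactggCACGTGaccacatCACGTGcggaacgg
Slc36a1, chr11:55204301-55204322, plus strand: tggagcggCACGTGacctgggc
Tmem55b, chr14:50930890-50931063, minus strand: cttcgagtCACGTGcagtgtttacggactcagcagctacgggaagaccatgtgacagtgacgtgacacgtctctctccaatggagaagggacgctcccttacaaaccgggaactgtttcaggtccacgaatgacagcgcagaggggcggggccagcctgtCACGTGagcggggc
The copies in Mfsd1 lay 13 to 86 bases before the RefSeq start and those in Lamp1 10 to 61 bases before it. The GENCODE gene model of Mfsd1 starts further upstream, at 67582741, so that the last 23 bases of its window lie in an annotated UTR. The window of Cln3, with 2 copies, is not shown. All 50 of its bases lie in an annotated UTR. Of the 5 genes, Mfsd1, Lamp1, Cln3 and Slc36a1 rose with each guide, while Tmem55b passed the test with neither, although it was called lower with sgRNA 11 under the correction for GC content and length (-0.12, adjusted p = 0.0143). Of all 35 tested members, 65.7% rose with sgRNA 11 and 71.4% with sgRNA 15. These shares were not split by motif, and 7 of the 36 genes had no promoter entry to search. Whether the motif goes with a rise was not tested.

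The tables held 16405296 to 25613961 reads counted on genes per library. Values are in CPM, the gene's reads scaled to the library's reads on genes with edgeR's TMM factors, and changes are log2 differences with their standard error (SE) from edgeR's quasi-likelihood test across 13453 genes, called at an adjusted p under 0.05. Slc12a9 itself stood at 62.6, 66.3 and 67.01 CPM with sgRNA 11, at 48.2, 50.01 and 51.7 CPM with sgRNA 15, and at 44.8, 53.5 and 46.96 CPM with the safe sgRNA. Its mRNA was higher with sgRNA 11 (log2 0.43, SE 0.05, adjusted p = 6.46e-13 by edgeR; 0.26 when corrected for GC content and gene length) and did not pass the test with sgRNA 15 (0.05, adjusted p = 0.426), so these counts do not show loss of the target, and the groups are called here by their labels. The 10 macrophage markers examined all passed the filter on low counts. They summed to 9563 to 9854 CPM with sgRNA 11, 7627 to 7732 CPM with sgRNA 15 and 5938 to 6098 CPM with the safe sgRNA. They mostly rose with sgRNA 11, with a median log2 change of 0.47. With sgRNA 15 they moved in both directions, with a median of 0.15. With sgRNA 11 9 rose and 1 fell, where 33.3% of all genes rose and 32.4% fell. With sgRNA 15 6 rose and 3 fell, where 32.2% of all genes rose and 30.7% fell. Lyz2 averaged 4513 CPM with sgRNA 11, 3567 CPM with sgRNA 15 and 1727 CPM with the safe sgRNA. In the same order Csf1r averaged 2628, 1745 and 1767 CPM, and Cd14 569, 647 and 892 CPM. The part of these markers in the results below was not tested. In bulk RNA, fewer cells of a type and less RNA per cell cannot be told apart. Markers of T and NK cells, of epithelial cells and of neutrophils and dendritic cells never summed to more than 0.676 CPM per list, with Cd3e, Cd3g, Cd8a, Ncr1, Epcam, Krt8, Krt18 and Siglech at 0 throughout. The 5 fibroblast markers summed to 1.21 to 2.61 CPM, with Col1a2, Col3a1 and Dcn at 0. Pdgfra made up most of that sum, at 1.13 to 2.51 CPM, and was the 1 fibroblast marker tested. It was called higher with each guide (log2 0.67 with sgRNA 11 and 0.68 with sgRNA 15).

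As a group, the lysosomal membrane genes were higher with both guides. Because the list was chosen with earlier results of these data known, the shares set beside those of all genes describe it and do not test it. They summed to 6318 to 6450 CPM with sgRNA 11, 6790 to 6843 CPM with sgRNA 15 and 5732 to 5758 CPM with the safe sgRNA, so the 3 groups did not overlap. With sgRNA 11, 23 of the 35 tested genes rose and 7 fell. These are 65.7% and 20% of the tested members and 85.7% together, where 65.8% of all 13453 genes were called, 33.3% higher and 32.4% lower. With sgRNA 15, 25 rose and 4 fell, or 71.4% and 11.4% and 82.9% together, where 62.9% of all genes were called, 32.2% higher and 30.7% lower. The median log2 change of the members was 0.25 with sgRNA 11 and 0.36 with sgRNA 15, while that of all genes tested was 0.01 with each guide. Under the correction for GC content and length, the members' median was 0.18 with sgRNA 11 and 0.25 with sgRNA 15. That of all genes was then -0.03 with sgRNA 11 and -0.04 with sgRNA 15. Both comparisons use the same 3 safe sgRNA libraries, so they are not independent of each other. Most changes were small. A log2 rise of at least 0.5 was called for 8 members with sgRNA 11, where 15.5% of all genes passed that mark, and for 10 with sgRNA 15, where 14.3% did. Slc15a3 and Abcb9, both with sgRNA 11, were the only members to fall by that much; 12.1% of all genes did so with sgRNA 11 and 9.58% with sgRNA 15.

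**Figure D1:**
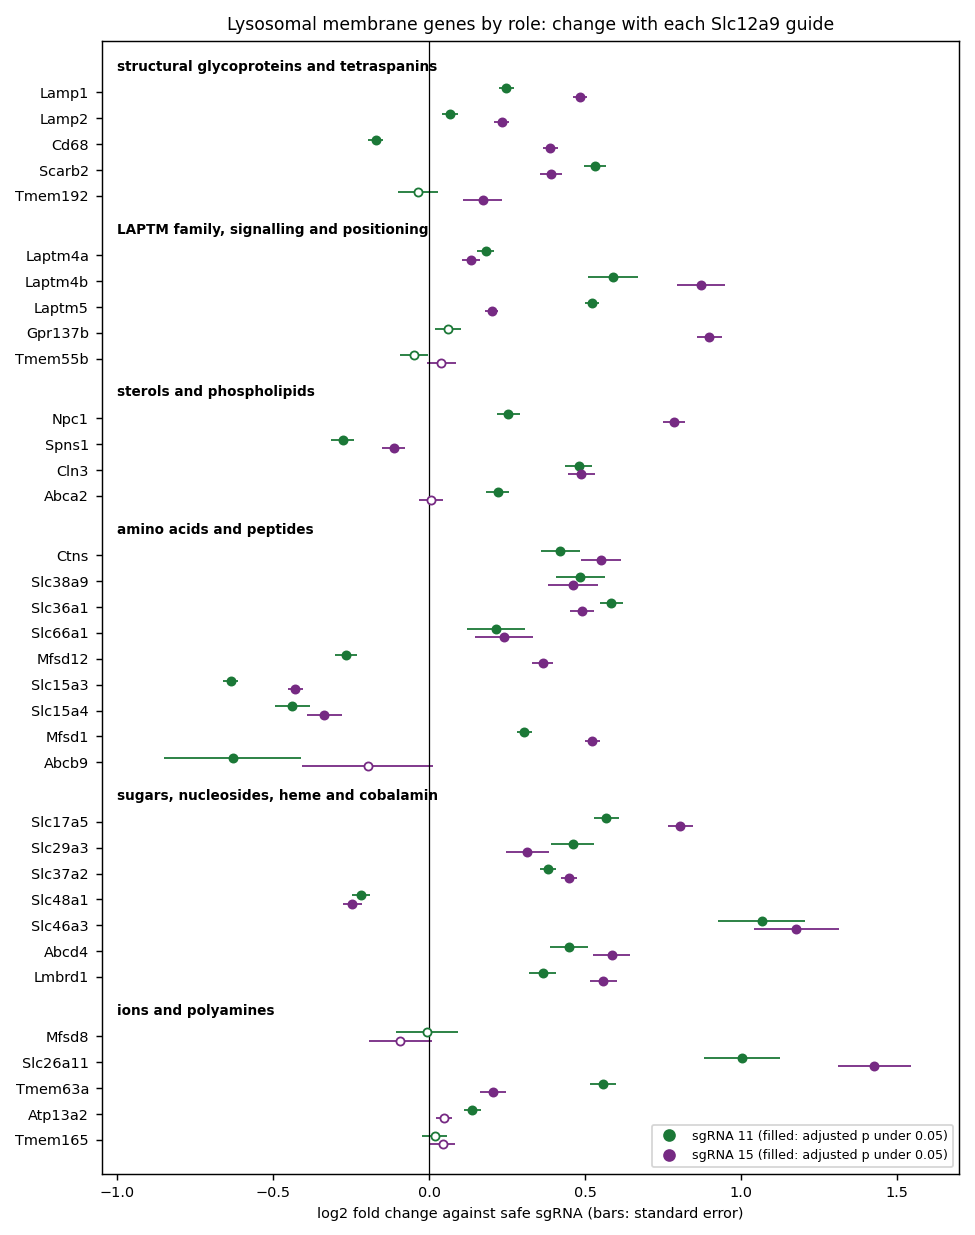
Log2 fold change against the safe sgRNA (x axis) of the 35 tested lysosomal membrane genes, grouped by role, with sgRNA 11 in green and sgRNA 15 in purple; bars are standard errors and filled points passed an adjusted p of 0.05. Slc26a11 and Slc46a3 lie farthest to the right with each guide (1.00 to 1.43). Of the genes called with both guides, Slc15a3, Slc15a4, Spns1 and Slc48a1 lie left of 0 with each, and Cd68 and Mfsd12 lie on opposite sides. Abcb9 (-0.63 with sgRNA 11 and -0.20 with sgRNA 15) and Mfsd8, not called with both, also lie left of 0 with each.

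The genes of the carriers for sugars, nucleosides, heme and cobalamin were mostly higher. Of 7 genes, 6 rose and 1 fell with sgRNA 11, where 33.3% of all genes rose and 32.4% fell. The counts were the same with sgRNA 15, where 32.2% of all genes rose and 30.7% fell. Their median log2 change was 0.45 with sgRNA 11 and 0.56 with sgRNA 15. Summed, they reached 724 to 743 CPM with sgRNA 11, 769 to 786 CPM with sgRNA 15 and 609 to 618 CPM with the safe sgRNA.

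Slc46a3 (chromosome 5, 147878437 to 147894815, mm10) encodes a lysosomal carrier that in human cells exports the breakdown products of antibody conjugates with maytansine drugs. It measured 7.17, 7.48 and 6.57 CPM with sgRNA 11, 8.11, 7.32 and 7.44 CPM with sgRNA 15, and 3.11, 3.79 and 3.24 CPM with the safe sgRNA. The safe sgRNA libraries lay below all others, and those of the guides overlapped. The rise was 1.07 (SE 0.14, adjusted p = 1.2e-10) with sgRNA 11 and 1.18 (SE 0.14, adjusted p = 3.08e-12) with sgRNA 15 on the log2 scale.

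Slc17a5 (chromosome 9, 78536488 to 78588041), the sialin that exports free sialic acid and is lost in sialic acid storage disease, measured 87.00, 84.8 and 86.9 CPM with sgRNA 11, 101, 101 and 104 CPM with sgRNA 15, and 56.3, 59.6 and 59.1 CPM with the safe sgRNA. No groups overlapped. It rose by 0.57 (SE 0.04, adjusted p = 1.28e-22) with sgRNA 11 and by 0.81 (SE 0.04, adjusted p = 3.22e-32) with sgRNA 15, and was lower with sgRNA 11 than with sgRNA 15 (log2 -0.24, adjusted p = 1.68e-07).

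Abcd4 and Lmbrd1 act together to release cobalamin, vitamin B12, from the lysosome, and both rose with each guide. The log2 changes of Abcd4 were 0.45 with sgRNA 11 and 0.58 with sgRNA 15, and those of Lmbrd1 were 0.36 with sgRNA 11 and 0.56 with sgRNA 15. Slc37a2, a sugar phosphate exchanger abundant in macrophages, averaged 357 ± 4.297 CPM with sgRNA 11, 374 ± 6.46 CPM with sgRNA 15 and 274 ± 3.04 CPM with the safe sgRNA (SD, n = 3 each). Slc29a3, which exports nucleosides, averaged 29.2 ± 0.848 CPM with sgRNA 11, 26.3 ± 1.35 CPM with sgRNA 15 and 21.3 ± 1.99 CPM with the safe sgRNA (SD, n = 3 each) and also rose with both guides.

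Slc48a1, the heme carrier HRG1 that macrophages use when recycling red cells, was the member of this group that fell. Its levels were 154, 148 and 152 CPM with sgRNA 11, 151, 149 and 146 CPM with sgRNA 15, and 173, 179 and 176 CPM with the safe sgRNA. The safe sgRNA libraries lay above all others. The log2 changes were -0.22 (adjusted p = 4.73e-10) with sgRNA 11 and -0.25 (adjusted p = 9.91e-12) with sgRNA 15, both with an SE of 0.03. The GC and length correction gave -0.37 with sgRNA 11. Per kb of exon it was the highest of the group over all libraries, at a mean of 55.1 CPM per kb with sgRNA 11, 53.99 with sgRNA 15 and 64.1 with the safe sgRNA; with sgRNA 15 Slc37a2 stood above it, at 56.3 CPM per kb.

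**Figure D2:**
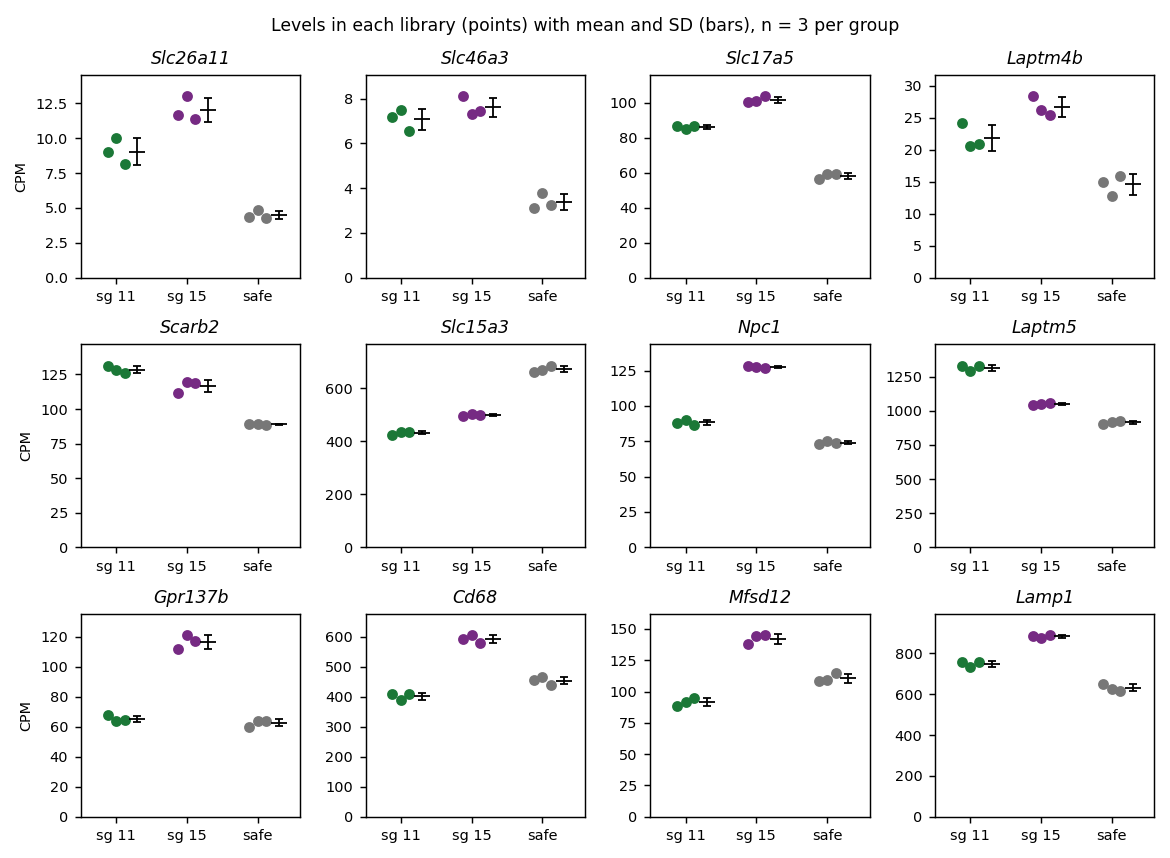
Levels in CPM (y axes, from 0) of 12 lysosomal membrane genes in each library, with sgRNA 11 in green, sgRNA 15 in purple and the safe sgRNA in grey; the bars beside the points give mean and SD of 3 libraries. Slc26a11, Slc46a3, Slc17a5 and Laptm4b stand above the safe sgRNA with both guides and Slc15a3 below it, Gpr137b stands apart with sgRNA 15, and Cd68 and Mfsd12 lie below the safe sgRNA with sgRNA 11 and above it with sgRNA 15.

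Among the carriers of ions and polyamines Slc26a11 changed with both guides by a log2 of at least 0.5, and Tmem63a did so with sgRNA 11. Of 5 genes, 3 rose with sgRNA 11 and 2 with sgRNA 15, and none fell. These were 60% and 40%, where 33.3% of all genes rose with sgRNA 11 and 32.2% with sgRNA 15. The median log2 change was 0.14 with sgRNA 11 and 0.05 with sgRNA 15.

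Slc26a11 (chromosome 11, 119355557 to 119381079), a sulfate and anion carrier, measured 9.02, 9.99 and 8.11 CPM with sgRNA 11, 11.7, 12.996 and 11.4 CPM with sgRNA 15, and 4.35, 4.85 and 4.26 CPM with the safe sgRNA. No groups overlapped. Its rise of 1.00 (SE 0.12, adjusted p = 9.22e-12) with sgRNA 11 and of 1.43 (SE 0.12, adjusted p = 3.24e-19) with sgRNA 15 on the log2 scale amounted to 2.69-fold with sgRNA 15. It was lower with sgRNA 11 than with sgRNA 15 (log2 -0.42, SE 0.10, adjusted p = 0.000559).

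Tmem63a, a mechanosensitive channel, rose by 0.56 (SE 0.04) with sgRNA 11 and by 0.20 (SE 0.04) with sgRNA 15, and was higher with sgRNA 11 than with sgRNA 15 (log2 0.35, adjusted p = 8.12e-12). The GC and length correction left 0.11 with sgRNA 15. Atp13a2, which exports polyamines, measured 387, 406 and 394 CPM with sgRNA 11, 366, 376 and 371 CPM with sgRNA 15, and 343, 363 and 372 CPM with the safe sgRNA. Its libraries of sgRNA 11 lay above the rest, and those of sgRNA 15 overlapped the safe sgRNA. The log2 change of 0.14 with sgRNA 11 (adjusted p = 2.16e-06) turned to -0.03 and lost its call under the GC and length correction, which also ended its called difference between the guides (0.09, adjusted p = 0.00321). With sgRNA 15 it was not called (0.05, adjusted p = 0.108), but it was called higher with library size only (0.09) and with the filter on mean CPM (0.06) and lower with the correction (-0.06). Mfsd8, the protein lost in CLN7 disease, and Tmem165, linked to manganese in the Golgi, passed the test with neither guide, with log2 values between -0.09 and 0.04.

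The genes for amino acid and peptide carriers moved in both directions. Of 9 genes, 5 rose and 4 fell with sgRNA 11, or 55.6% and 44.4%, where 33.3% of all genes rose and 32.4% fell. With sgRNA 15 6 rose and 2 fell, or 66.7% and 22.2%, where 32.2% of all genes rose and 30.7% fell. The median log2 change was 0.21 with sgRNA 11 and 0.36 with sgRNA 15. Summed they gave 1220 to 1241 CPM with sgRNA 11, 1425 to 1441 CPM with sgRNA 15 and 1350 to 1374 CPM with the safe sgRNA.

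The amino acid carriers Ctns, Slc36a1, Slc38a9 and Slc66a1 were higher with both guides. Ctns, the cystine exporter lost in cystinosis, averaged 31.6 ± 1.88 CPM with sgRNA 11, 34.6 ± 1.29 CPM with sgRNA 15 and 23.7 ± 1.596 CPM with the safe sgRNA (SD, n = 3 each), and rose by a log2 of 0.42 with sgRNA 11 and 0.55 with sgRNA 15. Slc36a1, which exports small neutral amino acids with protons, averaged 110.1 ± 2.53 CPM with sgRNA 11, 103 ± 1.03 CPM with sgRNA 15 and 73.5 ± 2.72 CPM with the safe sgRNA (SD, n = 3 each). Its log2 rises were 0.58 with sgRNA 11 and 0.49 with sgRNA 15. Slc38a9, which reports lysosomal arginine to the growth regulator mTORC1, rose by 0.48 with sgRNA 11 and 0.46 with sgRNA 15. For Slc66a1, a cationic amino acid exporter, the calls were near the threshold (0.21, adjusted p = 0.0368 with sgRNA 11; 0.24, adjusted p = 0.0208 with sgRNA 15), and both were lost with DESeq2 (adjusted p = 0.0986 with sgRNA 11 and 0.0737 with sgRNA 15) and with the GC and length correction (0.06 with sgRNA 11 and 0.14 with sgRNA 15). The value with sgRNA 11 lost its call at 0.11 without safe sgRNA replicate 2, at 0.19 without sgRNA 11 replicate 2 and at 0.20 without sgRNA 11 replicate 3. The value with sgRNA 15 lost it at 0.13 without safe sgRNA replicate 2, at 0.17 without sgRNA 15 replicate 1 and at 0.22 without sgRNA 15 replicate 2.

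Mfsd1 (chromosome 3, 67582741 to 67604237), which exports dipeptides and carries the 5 promoter copies of CACGTG printed above, was the highest of the group per kb, at a mean of 164 CPM per kb with sgRNA 11, 190.3 with sgRNA 15 and 132 with the safe sgRNA. It measured 516, 487 and 490.0 CPM with sgRNA 11, 584, 582 and 571 CPM with sgRNA 15, and 405, 401 and 404 CPM with the safe sgRNA. No groups overlapped. It rose by 0.30 (SE 0.02, adjusted p = 9.02e-20) with sgRNA 11 and by 0.52 (SE 0.02, adjusted p = 7.2e-34) with sgRNA 15.

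The proton-coupled carriers of peptides and histidine were lower. Slc15a3 (chromosome 19, 10839727 to 10859362) measured 426, 435 and 437 CPM with sgRNA 11, 497, 502 and 499 CPM with sgRNA 15, and 663, 669 and 686 CPM with the safe sgRNA. No groups overlapped. It fell by 0.64 (SE 0.02, adjusted p = 7.74e-41) with sgRNA 11 and by 0.43 (SE 0.02, adjusted p = 2.35e-29) with sgRNA 15 on the log2 scale. Its value is uncertain, since 28.1% of its exon length is shared with Tmem132a on the other strand and the strand setting of the counting is not given. Tmem132a, at 16.6 ± 0.533 CPM with sgRNA 11, 21.2 ± 1.58 CPM with sgRNA 15 and 33.5 ± 1.48 CPM with the safe sgRNA (SD, n = 3 each), fell too. Slc15a4, needed for endosomal Toll-like receptor signalling in immune cells, averaged 34.7 ± 0.559 CPM with sgRNA 11, 37.3 ± 1.64 CPM with sgRNA 15 and 46.9 ± 4.83 CPM with the safe sgRNA (SD, n = 3 each). It fell by 0.44 with sgRNA 11 (adjusted p = 6.15e-11) and by 0.34 with sgRNA 15 (adjusted p = 1.51e-07). Abcb9, a peptide importer of the ABC family and the least abundant tested member per kb, averaged 1.68 ± 0.226 CPM with sgRNA 11, 2.28 ± 0.050 CPM with sgRNA 15 and 2.602 ± 0.243 CPM with the safe sgRNA (SD, n = 3 each), and its fall was called with sgRNA 11 alone (log2 -0.63, SE 0.22, adjusted p = 0.00933; -0.20, SE 0.21, adjusted p = 0.427 with sgRNA 15). The difference between the guides did not pass the test for Abcb9 (log2 -0.43, SE 0.23, adjusted p = 0.14).

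Mfsd12 (chromosome 10, 81357491 to 81366225), which imports cysteine into lysosomes and melanosomes, changed in opposite directions. It measured 88.4, 91.8 and 95.2 CPM with sgRNA 11, 138, 144 and 145 CPM with sgRNA 15, and 108, 109 and 115 CPM with the safe sgRNA. The safe sgRNA libraries lay between those of the guides, with no overlap. It fell by 0.27 (SE 0.04, adjusted p = 2.29e-10) with sgRNA 11 and rose by 0.36 (SE 0.03, adjusted p = 2.39e-16) with sgRNA 15. The GC and length correction gave -0.44 with sgRNA 11. The value is uncertain because 29.8% of its exon length lies under Fzr1 and 4930404N11Rik on the other strand. Fzr1, a cell cycle regulator, averaged 97.8 ± 4.36 CPM with sgRNA 11, 95.2 ± 5.11 CPM with sgRNA 15 and 103 ± 0.806 CPM with the safe sgRNA (SD, n = 3 each), with log2 changes of -0.08 with sgRNA 11 and -0.11 with sgRNA 15.

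The structural glycoproteins differed between the guides: all 5 tested genes were called between them, 1 higher and 4 lower with sgRNA 11 than with sgRNA 15, with a median log2 difference of -0.21. Over all genes tested, 33.5% were called between the guides, 15.5% higher and 18% lower. Against the safe sgRNA, 3 of the 5 structural genes rose and 1 fell with sgRNA 11, with a median log2 change of 0.07, and all 5 rose with sgRNA 15, with a median of 0.39. Of all genes tested, 33.3% rose and 32.4% fell with sgRNA 11, and 32.2% rose and 30.7% fell with sgRNA 15. Summed, the group gave 1804 to 1878 CPM with sgRNA 11, 2225 to 2238 CPM with sgRNA 15 and 1687 to 1758 CPM with the safe sgRNA.

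Lamp1 (chromosome 8, 13159161 to 13175338) measured 757, 732 and 758 CPM with sgRNA 11, 887, 874 and 888 CPM with sgRNA 15, and 650.0, 626 and 617 CPM with the safe sgRNA. No groups overlapped. It rose by 0.25 (SE 0.02, adjusted p = 1.97e-16) with sgRNA 11, or by 0.16 with the GC and length correction, and by 0.48 (SE 0.02, adjusted p = 3.47e-33) with sgRNA 15. Lamp2, its close relative that also serves in chaperone-mediated autophagy, averaged 542 ± 12.8 CPM with sgRNA 11, 608 ± 2.66 CPM with sgRNA 15 and 517 ± 18.9 CPM with the safe sgRNA (SD, n = 3 each). The libraries of sgRNA 11 overlapped those of the safe sgRNA, and the call with sgRNA 11 (log2 0.07, adjusted p = 0.0127) was lost at 0.03 without safe sgRNA replicate 2, at 0.05 without safe sgRNA replicate 3 and at 0.06 without sgRNA 11 replicate 1. The GC and length correction raised it to 0.18, called. With sgRNA 15 it rose by 0.23 (adjusted p = 3.51e-14).

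Cd68 (chromosome 11, 69664213 to 69666153), the LAMP-family protein typical of macrophages, was the highest of the group per kb, at a mean of 319.6 CPM per kb with sgRNA 11, 471 with sgRNA 15 and 360.1 with the safe sgRNA. It measured 408, 388 and 409 CPM with sgRNA 11, 593, 604 and 580.2 CPM with sgRNA 15, and 454, 464 and 440.0 CPM with the safe sgRNA. As with Mfsd12, the safe sgRNA lay between the guides without overlap. Cd68 fell by 0.17 (SE 0.03, adjusted p = 4.02e-09) with sgRNA 11 and rose by 0.39 (SE 0.02, adjusted p = 3.22e-25) with sgRNA 15.

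Scarb2, LIMP-2, which carries glucocerebrosidase to the lysosome, rose with both guides. It averaged 129 ± 2.68 CPM with sgRNA 11, 117 ± 4.54 CPM with sgRNA 15 and 88.9 ± 0.203 CPM with the safe sgRNA (SD, n = 3 each), with log2 changes of 0.53 with sgRNA 11 and 0.39 with sgRNA 15. Tmem192, a protein often used as a tag to isolate lysosomes, was called with sgRNA 15 (0.17, adjusted p = 0.0138) but not with sgRNA 11 (-0.04, adjusted p = 0.647), and the call was lost at 0.11 without sgRNA 15 replicate 1 and at 0.16 without safe sgRNA replicate 2. Cd63, a tetraspanin of late endosomes, had 2 reads over the whole series, 1 in sgRNA 15 replicate 2 and 1 in safe sgRNA replicate 1. This count is not read as absence: reads that align to more than 1 place were not counted, and their part here was not tested. The annotated copy Cd63-ps was at 0 in every library.

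In the group of LAPTM proteins and of signalling and positioning proteins, 3 of 5 genes rose with sgRNA 11 and 4 with sgRNA 15, and none fell. These were 60% and 80%, where 33.3% of all genes rose with sgRNA 11 and 32.2% with sgRNA 15. The median log2 change was 0.18 with sgRNA 11 and 0.20 with sgRNA 15.

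Laptm5 (chromosome 4, 130913125 to 130936141), a lysosomal protein of blood cells that lowers the surface level of antigen receptors, was the most abundant of the group per kb, at a mean of 348 CPM per kb with sgRNA 11, 278 with sgRNA 15 and 242 with the safe sgRNA. It measured 1329, 1291 and 1330.4 CPM with sgRNA 11, 1045, 1053 and 1061 CPM with sgRNA 15, and 906, 915 and 929 CPM with the safe sgRNA. No groups overlapped. The rise was 0.52 (SE 0.02, adjusted p = 7.27e-37) with sgRNA 11 and 0.20 (SE 0.02, adjusted p = 3.31e-13) with sgRNA 15, or 0.10 with sgRNA 15 under the GC and length correction.

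Laptm4b (chromosome 15, 34238028 to 34284302), which in human cells brings a leucine transporter to the lysosome, measured 24.2, 20.5 and 20.9 CPM with sgRNA 11, 28.4, 26.2 and 25.4 CPM with sgRNA 15, and 15.01, 12.8 and 15.98 CPM with the safe sgRNA. No groups overlapped. It rose by 0.59 (SE 0.08, adjusted p = 3.44e-10) with sgRNA 11 and by 0.87 (SE 0.08, adjusted p = 2.41e-17) with sgRNA 15. Its relative Laptm4a rose by 0.18 with sgRNA 11 and by 0.13 with sgRNA 15.

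Gpr137b (chromosome 13, 13357620 to 13394014), a lysosomal membrane protein that in human cells helps regulate Rag GTPases and mTORC1, measured 67.6, 64.1 and 64.4 CPM with sgRNA 11, 112, 121 and 117 CPM with sgRNA 15, and 60.2, 64.2 and 64.1 CPM with the safe sgRNA. The sgRNA 15 libraries lay above all others, while the remaining groups overlapped. It rose by 0.90 (SE 0.04, adjusted p = 3.23e-35) with sgRNA 15 and did not pass the test with sgRNA 11 (0.06, SE 0.04, adjusted p = 0.202), where scaling by library size only gave a called 0.09 (adjusted p = 0.0459). Gpr137b is uncertain because a close copy, Gpr137b-ps, may share its reads; the copy averaged 61.2 ± 2.33 CPM with sgRNA 11, 107 ± 2.12 CPM with sgRNA 15 and 62.1 ± 2.95 CPM with the safe sgRNA (SD, n = 3 each). Tmem55b, which positions lysosomes along microtubules, had log2 values of -0.05 with sgRNA 11 and 0.04 with sgRNA 15 and passed the test with neither guide. With sgRNA 11 a fall was called under the GC and length correction (-0.12, adjusted p = 0.0143). A share of 19.5% of its exon length is common with Apex1 on the other strand, so its value is uncertain; Apex1, a DNA repair enzyme, fell by 0.71 with sgRNA 11 and by 0.80 with sgRNA 15.

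Of the 4 genes for handling sterols and phospholipids, 3 rose and 1 fell with sgRNA 11, where 33.3% of all genes rose and 32.4% fell. With sgRNA 15 2 rose and 1 fell, where 32.2% of all genes rose and 30.7% fell. Npc1, the cholesterol exporter lost in Niemann-Pick disease type C, measured 88.2, 90.1 and 86.6 CPM with sgRNA 11, 128, 127 and 127 CPM with sgRNA 15, and 73.1, 75.2 and 73.8 CPM with the safe sgRNA. No groups overlapped. It rose by 0.25 (SE 0.04, adjusted p = 6e-09) with sgRNA 11 and by 0.78 (SE 0.04, adjusted p = 3.32e-34) with sgRNA 15.

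Spns1, which exports lysophospholipids, was the highest of the group per kb, at a mean of 22.7 CPM per kb with sgRNA 11, 25.5 with sgRNA 15 and 27.6 with the safe sgRNA. It measured 83.1, 82.6 and 87.2 CPM with sgRNA 11, 92.1, 95.7 and 95.7 CPM with sgRNA 15, and 101, 104 and 101 CPM with the safe sgRNA. The groups did not overlap, and it was the lipid gene that fell. The log2 change was -0.28 (SE 0.04, adjusted p = 2.46e-10) with sgRNA 11 and -0.11 (SE 0.04, adjusted p = 0.00497) with sgRNA 15. The GC and length correction gave -0.45 with sgRNA 11 and -0.22 with sgRNA 15, and scaling by library size alone ended the call with sgRNA 15 (-0.08).

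Cln3, lost in juvenile Batten disease and needed to clear glycerophosphodiesters, averaged 72.6 ± 2.88 CPM with sgRNA 11, 72.95 ± 2.38 CPM with sgRNA 15 and 52.1 ± 1.33 CPM with the safe sgRNA (SD, n = 3 each). It rose by 0.48 (adjusted p = 1.17e-16) with sgRNA 11 and by 0.49 (adjusted p = 6.64e-17) with sgRNA 15. Abca2, an ABC transporter linked to sterol handling, was called with sgRNA 11 (0.22, adjusted p = 3.62e-07), a call that ended under the GC and length correction (0.05), and not with sgRNA 15 (0.00, adjusted p = 0.921), where the correction gave a called fall (-0.11, adjusted p = 0.00669).

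Levels between genes can be compared per kb of exon. On that scale the tested members spanned 0.299 CPM per kb for Abcb9 to 348 for Laptm5 with sgRNA 11, 0.407 for Abcb9 to 471 for Cd68 with sgRNA 15, and 0.464 for Abcb9 to 360.1 for Cd68 with the safe sgRNA. Cd68, Laptm5 and Lamp1 were the highest 3 with each guide, in the order Laptm5, Cd68, Lamp1 with sgRNA 11 and Cd68, Lamp1, Laptm5 with sgRNA 15, against Cd68, Laptm5, Lamp1 with the safe sgRNA. The genes with the largest relative rise, Slc26a11 and Slc46a3, were among the least abundant, at a mean of 2.504 and 2.88 CPM per kb with sgRNA 11.

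**Figure D3:**
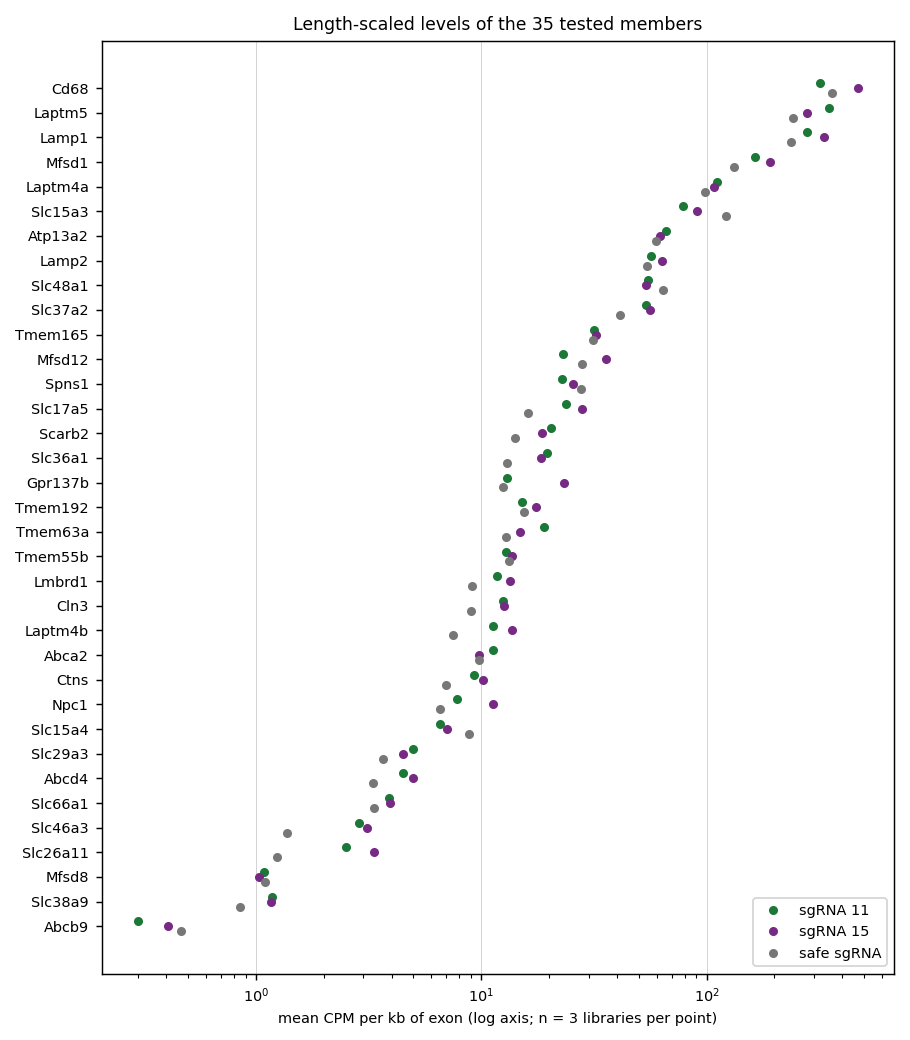
Mean level per kb of exon (x axis, log scale, CPM per kb) of the 35 tested lysosomal membrane genes with sgRNA 11 (green), sgRNA 15 (purple) and the safe sgRNA (grey), each point a mean of 3 libraries. The genes run over 3 orders of magnitude, with Cd68, Laptm5 and Lamp1 above 200 CPM per kb in every group and Abcb9 below 1.

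The guides were also set against each other. Of the 35 tested members, 21 differed, 6 higher and 15 lower with sgRNA 11 than with sgRNA 15; these are 60.0% of them, where 33.5% of all genes tested were called, 15.5% higher and 18% lower. The median log2 difference was -0.11 for the members and -0.01 for all genes. Lower by at least 0.5 with sgRNA 11 were 4 members, where 2.81% of all genes passed that mark, and no member was higher by as much, where 2.45% were. The 4 were Gpr137b at -0.84 (SE 0.04, adjusted p = 1.44e-32), Mfsd12 at -0.63 (SE 0.03, adjusted p = 2.51e-28), Cd68 at -0.56 (SE 0.02, adjusted p = 1.81e-34) and Npc1 at -0.53 (SE 0.04, adjusted p = 2.03e-23). Of the structural genes, Lamp1, Lamp2, Cd68 and Tmem192 were lower with sgRNA 11 than with sgRNA 15, and Scarb2 was higher (log2 0.14, adjusted p = 0.000423). The other members higher with sgRNA 11 were Laptm5 (0.32, adjusted p = 7.95e-23), Tmem63a, Abca2, Slc36a1 and Atp13a2. Some small called differences were not stable. That of Slc37a2 (-0.07, adjusted p = 0.0243) was lost under both other filters on low counts (-0.06 with each), under the GC and length correction (-0.05), and without sgRNA 11 replicate 1 or 2 or sgRNA 15 replicate 1 or 2 (-0.06 to -0.05). That of Slc36a1 (0.09, adjusted p = 0.0326) was lost with DESeq2 (0.10), the correction (0.06) and without sgRNA 11 replicate 3 (0.08) or sgRNA 15 replicate 1 (0.09). The correction also ended that of Lamp2 (-0.17, adjusted p = 1.89e-08; -0.04 when corrected), and leaving out sgRNA 15 replicate 1 ended that of Tmem192 (-0.21, adjusted p = 0.00652; -0.13 without it). For Lmbrd1 the correction gave -0.11 in place of -0.19, still called.

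**Figure D4:**
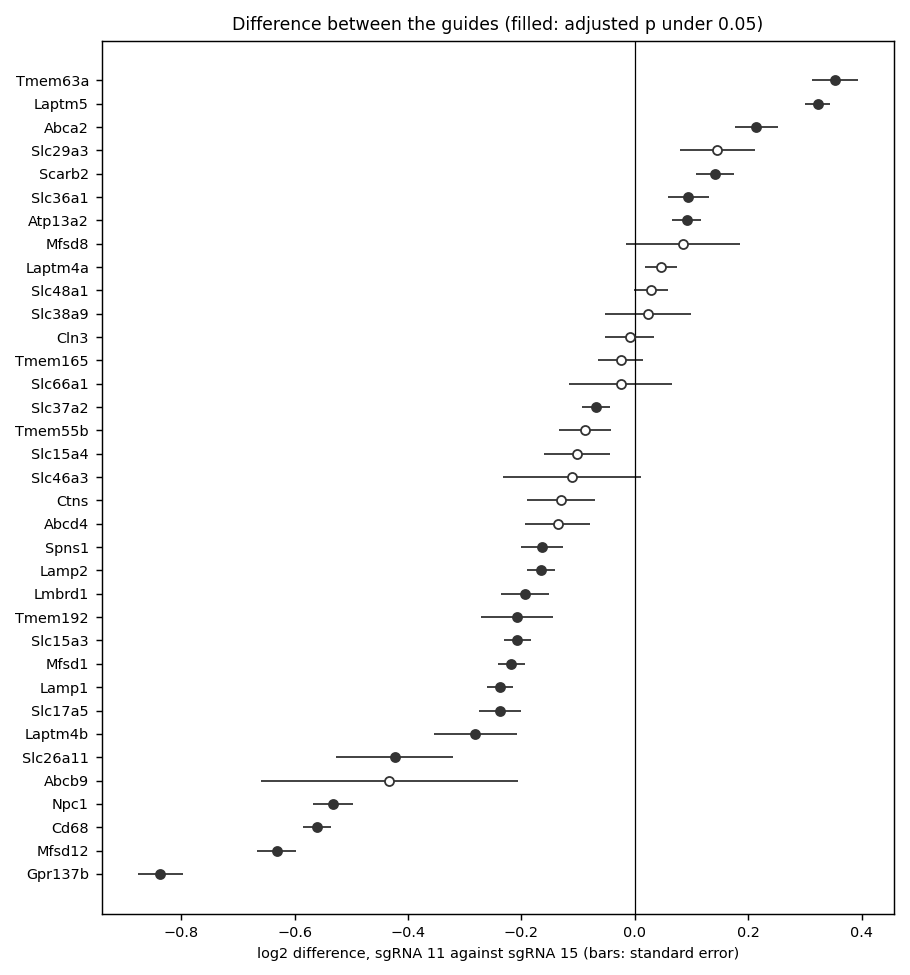
Log2 difference of sgRNA 11 against sgRNA 15 (x axis) for each of the 35 tested lysosomal membrane genes, with standard errors as bars; filled points passed an adjusted p of 0.05. Tmem63a (0.35) and Laptm5 (0.32) lie farthest to the right, while Gpr137b (-0.84), Mfsd12 (-0.63), Cd68 (-0.56) and Npc1 (-0.53) lie farthest to the left.

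Other lysosomal membrane genes outside the 36, such as channels and further carriers, were also mostly higher. Of 21 such genes 20 were tested. With sgRNA 11 15 rose and 3 fell, or 75% and 15%, where 33.3% of all genes rose and 32.4% fell. With sgRNA 15 16 rose and 2 fell, or 80% and 10%, where 32.2% of all genes rose and 30.7% fell. The medians were 0.30 with sgRNA 11 and 0.57 with sgRNA 15 on the log2 scale. This list was also chosen with earlier results of these data known. Slc2a8, a hexose transporter of intracellular membranes, averaged 45.7 ± 1.37 CPM with sgRNA 11, 42.96 ± 0.815 CPM with sgRNA 15 and 20.5 ± 0.726 CPM with the safe sgRNA (SD, n = 3 each), a rise of 1.16 with sgRNA 11 (adjusted p = 6.25e-32) and 1.07 with sgRNA 15 (adjusted p = 3.01e-29). Slc49a4 rose by 1.02 with sgRNA 11 and 1.13 with sgRNA 15, and the lysosomal ion channel Tmem175 by 0.95 with sgRNA 11 and 1.13 with sgRNA 15, although 35.3% of the exon length of Tmem175 is shared with Dgkq on the other strand, which makes its value uncertain.

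Genes of the machinery that sorts or induces lysosomal membrane proteins moved in mixed directions. Of the 5 subunits of AP-3, the adaptor that routes membrane proteins to lysosomes, 2 rose and 2 fell with sgRNA 11 and 4 rose and none fell with sgRNA 15. In percent, 40% rose and 40% fell with sgRNA 11, where 33.3% of all genes rose and 32.4% fell. With sgRNA 15 80% rose, where 32.2% of all genes rose and 30.7% fell. Ap3s2 rose by 0.14 with sgRNA 11 and 0.32 with sgRNA 15, Ap3b1 by 0.12 with sgRNA 11 and 0.20 with sgRNA 15, and Ap3s1 fell by 0.25 with sgRNA 11 and rose by 0.20 with sgRNA 15. The GC and length correction ended the calls of Ap3s2 (0.06) and Ap3b1 (0.06) with sgRNA 11, and gave -0.16 for Ap3s1 with sgRNA 11 and 0.11 for Ap3b1 with sgRNA 15. With sgRNA 11, Ap3s2 was also not called with DESeq2 (0.13) or without safe sgRNA replicate 1 or 2 or sgRNA 11 replicate 1 (0.10 to 0.11), nor Ap3b1 without sgRNA 11 replicate 3 (0.09). Of the 3 tested MiT/TFE genes, 1 fell with sgRNA 11, and 1 rose and 2 fell with sgRNA 15. With so few genes, neither these counts nor those of AP-3 were read as a trait of the list. Tfeb averaged 43.6 ± 1.49 CPM with sgRNA 11, 34.8 ± 2.09 CPM with sgRNA 15 and 50.5 ± 4.69 CPM with the safe sgRNA (SD, n = 3 each). It fell by 0.21 with sgRNA 11 (adjusted p = 0.000463; by 0.37 with the GC and length correction) and by 0.53 with sgRNA 15 (adjusted p = 5.63e-14). Tfe3 was not called with sgRNA 11 (0.08, adjusted p = 0.0624), though it was called higher with library size only (0.11), with the filter on mean CPM (0.10), without safe sgRNA replicate 3 (0.09) and without sgRNA 15 replicate 1 (0.08). It fell by 0.17 with sgRNA 15 (by 0.26 with the correction), and Mitf was not called with sgRNA 11 (0.06, adjusted p = 0.402) and rose by 0.23 with sgRNA 15. These are mRNA levels; the activity of these factors depends on where the protein is in the cell, which was not measured.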

How the data were processed

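PolyA RNA of 9 libraries was measured as read counts per gene. The authors aligned the reads with STAR to mm10 and counted them with HTSeq, per the submitters' processing notes; not given in the sources used here are the versions, annotation, strand and overlap settings. The deposited counts are raw whole numbers over 55487 genes. HTSeq's tallies of uncounted reads were left out of library sizes; gene counts made up 79.3 to 80.7% of reads, and reads aligning to several places or genes were not counted, which lowers genes with close copies.

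Symbols were matched through GENCODE M21, and promoter sequences came from RefSeq. The test was edgeR 4.0.16's quasi-likelihood test (R 4.3.3) with TMM factors, a minimum count of 10 by filterByExpr, 1 fit of all 9 libraries and Benjamini-Hochberg adjustment over 13453 genes. CPM per kb divides CPM by the union exon length. The fit was tested on simulated data. Alternatives were DESeq2 1.42.0, limma 3.58.1 (voom), other scaling, filters, a fit of only the groups compared, GC and length correction, a replicate block and each library left out.

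The members and lists were chosen with earlier results of these data known. Genes given in every library were those called in 1 direction with both guides by a log2 of at least 0.5, those called in opposite directions, the 5 with the largest called difference between guides and the highest of each role per kb; for the other lists, the 3 with the largest change. Lamp1, Slc15a3 and the overlapping or copied genes were added after values were seen. Replicates of a group differed beyond counting noise in every pair. This cannot tell separate cultures from repeat preparations of 1 culture. Each library was therefore treated as 1 sample without evidence that it is independent. The common spread between replicates beyond counting error was 2.82% by edgeR. Library depths limit precision for counting error only. 1 marker list is not reported here.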

Additional observations from a re-analysis of the deposited data

Results flagged for a closer look

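Cd68 and Mfsd12 stood out because they moved in opposite directions with the guides against the same safe sgRNA libraries, and the difference between the guides was itself tested. Cd68 differed by a log2 of -0.56 for sgRNA 11 against sgRNA 15 (edgeR adjusted p = 1.81e-34), with 3 of 3 sgRNA 11 libraries below every safe sgRNA library and 3 of 3 sgRNA 15 libraries above them. Mfsd12 differed by -0.63 (edgeR adjusted p = 2.51e-28), with the same order of libraries; its exon overlap with Fzr1 and 4930404N11Rik leaves its value uncertain.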

How the results depend on the processing

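The number of members called ranged over the alternatives from 28 to 31 with sgRNA 11, from 27 to 30 with sgRNA 15 and from 17 to 22 between the guides. Without single libraries the ranges were 28 to 30, 27 to 29 and 18 to 22. Calls over all genes stayed frequent too, with 9781 to 26475 genes tested. With sgRNA 11, 3839 to 4842 were called higher and 3715 to 4927 lower over all these alternatives. With sgRNA 15 these were 3646 to 4798 and 3596 to 4858, and between the guides 1775 to 2252 and 1950 to 2527. Steady counts of members are thus not by themselves a trait of the list. Of 80 called results for single members, 12 lost the call or changed sign in at least 1 of 18 alternatives; the cause was not tested. The GC and length correction moved the median of all genes to -0.0337 with sgRNA 11 and -0.042 with sgRNA 15. Several of the sign changes listed next are about that size. With the GC and length correction the sign changed for Mfsd8 (0.0423), Atp13a2 (-0.0282), Tmem165 (-0.0546) and Tfe3 (-0.0229) with sgRNA 11, for Tmem55b (-0.0488), Abca2 (-0.111), Atp13a2 (-0.0616), Tmem165 (-0.0278) and Slc12a9 (-0.0651) with sgRNA 15, and for Slc48a1 between the guides (-0.0319). Of these results only Atp13a2 with sgRNA 11 was called without the correction and only Abca2 and Atp13a2 with sgRNA 15 were called with it (adjusted p = 0.00669 and 0.0421). Abca2 with sgRNA 15 was -0.004996 with DESeq2 and -0.00472 with RLE factors. Mfsd8 with sgRNA 11 was 0.02597 with library size only, 0.002402 with no filter and 0.0173 with the filter on mean CPM, and Cln3 between the guides was 0.003902 with no filter and 0.00426 with the filter on mean CPM. Without single libraries the values ran from -0.0216 to 0.00862 for Abca2 and from -0.0163 to 0.109 for Slc12a9 with sgRNA 15, and from -0.0344 to 0.0306 for Mfsd8 with sgRNA 11. Those of Tmem165 ran from -0.0208 to 0.0356 with sgRNA 11, from -0.00973 to 0.0604 with sgRNA 15 and from -0.0530 to 0.0292 between the guides. Between the guides they ran from -0.0107 to 0.0636 for Slc38a9, from -0.0942 to 0.0529 for Slc66a1 and from -0.0194 to 0.0304 for Cln3. Correlations of deviations ran from -0.00774 to 0.0576 for libraries of the same replicate number and from -0.0721 to 0.0412 for different numbers. The highest (0.0576, 0.0526 and 0.0493) were all of the same number. These values show no strong pairing and cannot exclude a weak one. Over all genes, the replicate block called 4526 higher and 4414 lower with sgRNA 11, where 4484 and 4365 were called without it. Between the guides it called 2184 and 2511, where 2086 and 2416 were called without it. With the replicate number as a block 30 members were called with sgRNA 11, 29 with sgRNA 15 and 22 between the guides, where Abcd4 gained a call (-0.14, adjusted p = 0.0377). Differences between the guides also gained a call for Abcd4 with library size only (-0.14) and without sgRNA 11 replicate 3 (-0.19), for Slc29a3 with the filter on mean CPM (0.16) and without sgRNA 15 replicate 2 (0.20), and for Ctns without sgRNA 11 replicate 3 (-0.17). Abcb9 and Cd63 had the fewest reads of the members, and what set the count of Cd63 was not tested.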
